A study of Mus musculus with 8 samples.

Results

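A set of 8 genes for secreted antagonists and modulators of BMP and activin signalling was followed through all the RNA-seq libraries of cultured mouse molar tooth germs. The 8 genes were chosen by name (Nog, Chrd, Grem1, Sostdc1, Fst, Fstl1, Bmper and Twsg1), with earlier results of these data known. Each matched 1 row of the 35896 rows of the count table, and all 8 passed the filter on low counts. BRE-GFP embryos gave molar germs, the early rudiments of molars, at E12.5 or E13.5, and these were cultured for 1 day with an inhibitor or its solvent. The E12.5 germs received DMSO (solvent), SB431542 (an inhibitor of the type I receptors for TGF-beta and activin) or SIS3 (an inhibitor of Smad3), and the E13.5 germs received DMSO. Every group, the controls included, carried the BRE-GFP transgene, in which a BMP response element drives a fluorescent reporter. The sources used here state neither doses nor whether embryos were pooled.

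BMPs and activins are secreted ligands that bind pairs of type I and type II receptor kinases, which phosphorylate Smad1/5/9 for BMPs and Smad2/3 for activin and TGF-beta. The antagonists act before this step: they hold the ligand in the extracellular space and keep it from its receptors. In the developing tooth BMP4 and activin pass signals between the dental mesenchyme and the epithelium, and Sostdc1 and follistatin are known for restraining these signals around the enamel knot and in ameloblast formation.

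Each group has 2 deposited columns. In 3 of the 4 groups the pair differed by about the sampling noise for protein-coding genes with 1 transcript. Totals of the paired columns differed by 0.00168% for E12.5 DMSO, 0.00212% for SB431542 and 0.00749% for E13.5 DMSO. Over protein-coding genes with 1 transcript, the squared difference relative to that of dividing 1 set of reads at random had a median ratio of 1.08, 1.09 and 1.08. It was larger for genes with 2 to 6 transcripts (1.90, 1.87 and 1.55) and for those with 7 or more (3.1, 3.2 and 2.4). These pairs were summed and counted as 1 sample each. The SIS3 columns, whose totals differed by 44.5% and whose ratio was 11.4, were kept as 2 libraries. The 5 libraries held 5995709 to 30975010 counts. The TruSeq RNA kit v2 was used for SIS3 alone and the SMARTer Universal Low Input kit for every other group, so the inhibitor SIS3 and the kit cannot be told apart. Dental mesenchyme markers were present throughout (12 of 12 detected in each library, summed at 3208 to 4286 CPM, the count scaled by the library total). The 15 markers of dental epithelium, the other tissue of the germ, summed to 81.8 to 623 CPM, with Shh at 0 in SIS3 library 1 and at E13.5 and Cldn6 at 0 at E13.5. Each value comes from whole germs, in which fewer cells of a type and less RNA per cell cannot be told apart.

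The levels of the antagonists were first ordered per length, in RPKM (CPM per kilobase of the union of the gene's exons). In the E12.5 DMSO library Fstl1, a follistatin-like secreted glycoprotein of mesenchyme, led at 160 RPKM and made up 64.9% of the summed level of the 8 genes. Sostdc1 followed at 34.9 RPKM and Twsg1 at 31.3, then Fst at 7.79, Bmper at 4.92, Nog at 3.43, Grem1 at 2.93 and Chrd at 1.34. The genes of the classical BMP traps noggin, gremlin 1 and chordin were thus the lowest of the 8 in this library, and the 95% counting intervals of neighbours (exact binomial, counting error only) overlapped only for Nog and Grem1. With the longest transcript as the length, Twsg1 (39.5) stood above Sostdc1 (34.9). Of the ligands these proteins bind, Bmp4 stood at 35.9 RPKM and Inhba, which encodes the activin A subunit, at 23.3 RPKM in the same library.

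**Figure D1:**
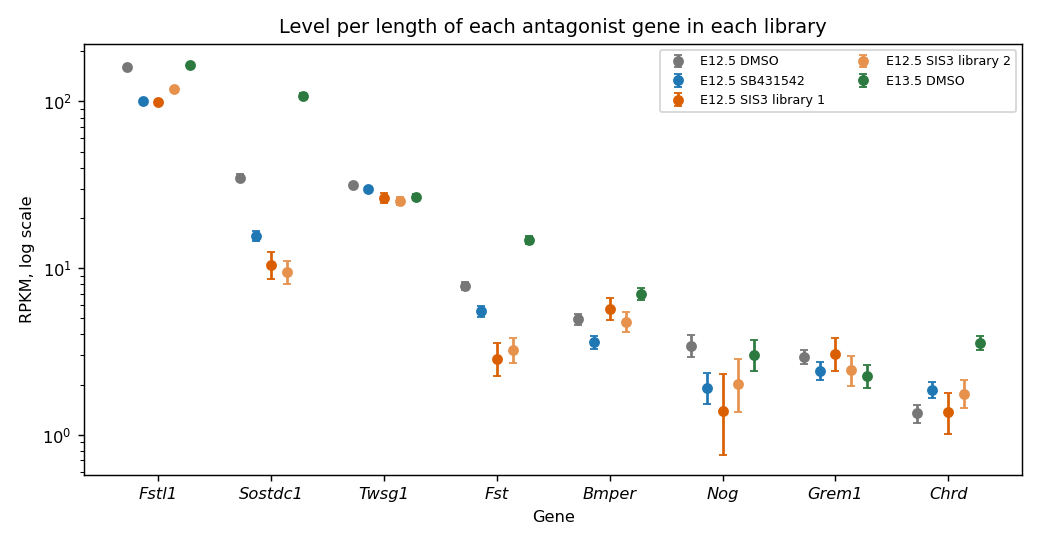
Level per length (RPKM, log axis) of each antagonist gene in each of the 5 libraries, genes ordered by their E12.5 DMSO level, with 95% counting intervals as bars. Fstl1 was highest in every library, while Sostdc1 ran from 9.41 to 108 RPKM and Twsg1 only from 25.4 to 31.3.

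The order changed most through Sostdc1. Its share of the summed level was 14.1% in E12.5 DMSO, 9.67% with SB431542, 6.91% and 5.6% in the SIS3 libraries and 32.6% at E13.5. Fst stood above Bmper in E12.5 DMSO and below it in both SIS3 libraries, where its interval overlapped that of Grem1. On this scale Chrd was last in every E12.5 library, with an interval that overlapped that of Nog in all but the DMSO library, and stood above Nog and Grem1 at E13.5, where its interval again overlapped that of Nog. With the longest transcript as the length, Nog was last in the SB431542 library (1.91 against 2.65 for Chrd) and in both SIS3 libraries (1.38 against 1.93 and 2.00 against 2.50). Without Fstl1 the other 7 genes summed to 86.6 RPKM in E12.5 DMSO, 60.6 with SB431542, 51.2 and 49.0 with SIS3 and 165 at E13.5.

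**Figure D2:**
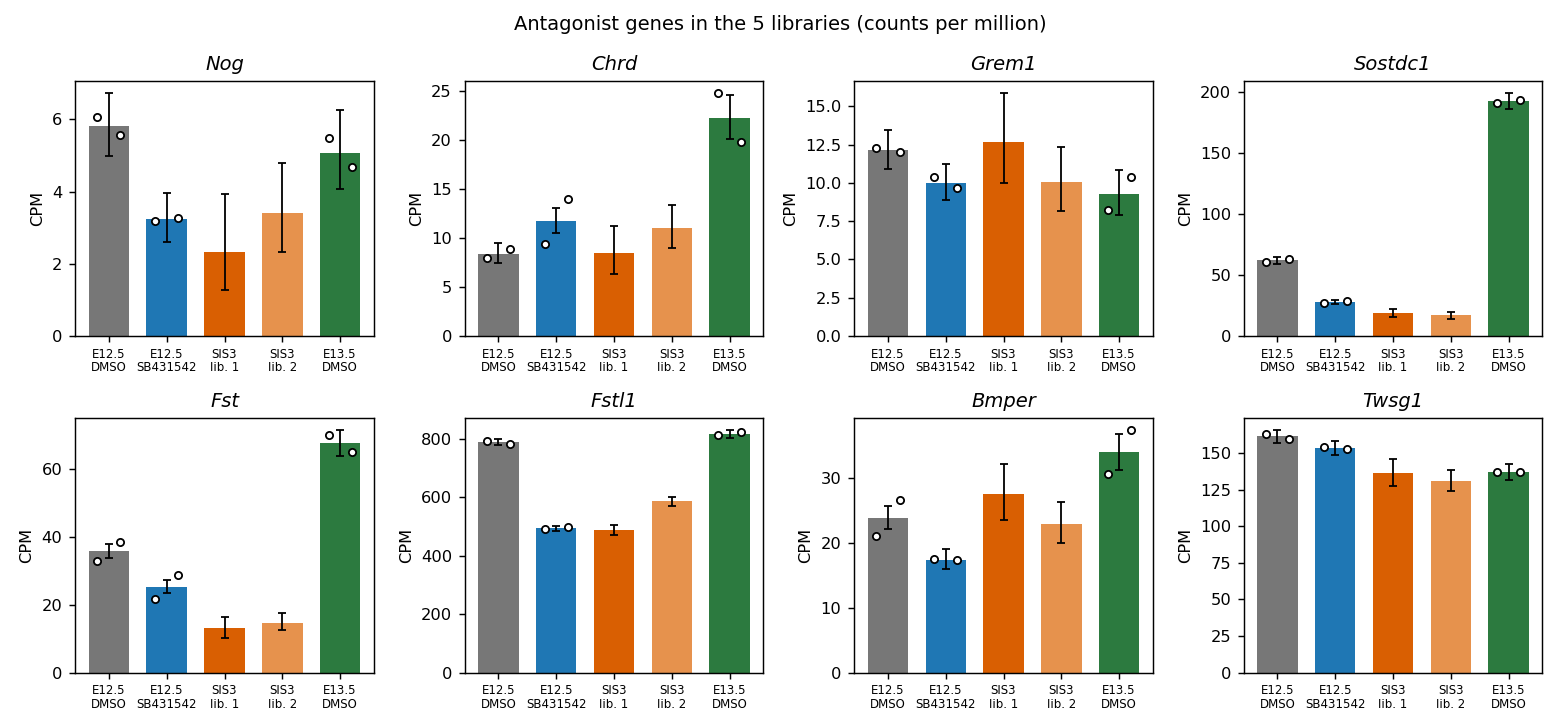
CPM of the 8 genes in the 5 libraries (bars, from 0), with 95% counting intervals; open circles are the paired deposited columns of the 3 SMARTer groups. Sostdc1 and Fst were lowest in the SIS3 libraries and highest at E13.5, and Twsg1 and Grem1 varied little.

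Sostdc1 (ENSMUSG00000036169; GRCm38 chromosome 12, 36314139 to 36318452, plus strand, 1 annotated transcript) encodes a secreted cystine-knot protein, also called ectodin, that binds BMPs and the Wnt co-receptor LRP. It is the member with the widest range, and none of the 31-base words of its transcript occurs in another gene, so its reads could not be divided between copies.

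Sostdc1 stood at 62.1 CPM in E12.5 DMSO, 27.7 with SB431542, 18.5 and 16.8 in the SIS3 libraries (17.6 ± 1.24, SD, n = 2) and 193 at E13.5. All 3 inhibitor libraries were below the E12.5 control and the E13.5 library was above it, with a range of 11.5 times. The counting intervals did not overlap between groups, but they cover counting error only, and every group but SIS3 is 1 library. The paired columns, each pair counted here as 1 library, stood at 61.0 and 63.2 CPM for E12.5 DMSO, 26.8 and 28.6 for SB431542 and 192 and 194 for E13.5. Their closeness does not measure the spread between cultures. In SIS3 against DMSO the log2 fold change was -1.89 (SE 0.31, 95% CI -2.55 to -1.23, adjusted p = 0.00393, edgeR quasi-likelihood test with Benjamini-Hochberg adjustment over 19022 genes). It was called in all 15 alternatives with a test (adjusted p 1.37e-06 to 0.0488). At E13.5 it was higher by 1.66 (SE 0.37, 95% CI 0.87 to 2.46, adjusted p = 0.0228, same test), a comparison of 1 library with 1. That call ended among genes with a mean of at least 5 CPM (adjusted p = 0.075), with GC and length trends removed (0.114) and with receptor, predicted and non-coding genes left out (0.0807), while its size stayed between 1.48 and 1.76.

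In SB431542 against DMSO the log2 fold change of Sostdc1 was -1.22 (SE 0.37, 95% CI -2.004 to -0.426), and it did not pass (unadjusted p = 0.00533, adjusted p = 1, edgeR). By unadjusted p it was the gene in place 41 of 19022, and no gene passed in that comparison. The direct test of SIS3 against SB431542 gave -0.67 (95% CI -1.35 to 0.00, adjusted p = 0.352), so a difference between the inhibitors in their effect on Sostdc1 was not shown, and the interval reaches from equal levels to a further log2 difference of -1.35.

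Nog, Chrd and Grem1 encode noggin, chordin and gremlin 1, BMP traps of which noggin and chordin are known from the embryonic organizer and gremlin 1 from the limb bud. Nog (ENSMUSG00000048616; chromosome 11, 89300638 to 89302332, minus strand) stood at 5.81 CPM in E12.5 DMSO, 3.23 with SB431542, 2.34 and 3.39 with SIS3 and 5.08 at E13.5. The inhibitor libraries were thus the low ones, but the counts behind them were only 91, 14 and 32. Log2 fold changes were -0.90 (95% CI -2.66 to 0.87) for SB431542 and -1.08 (-2.60 to 0.44, adjusted p = 0.486, edgeR) for SIS3, and both intervals include 0 and a difference of -2. The stage difference was -0.16 (-1.92 to 1.59).

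Chrd (ENSMUSG00000006958; chromosome 16, 20733127 to 20742384, plus strand) was, like Sostdc1, highest at E13.5. It stood at 8.39 CPM in E12.5 DMSO, 11.7 with SB431542, 8.51 and 11.03 with SIS3 and 22.3 at E13.5. The stage log2 fold change was 1.44 (SE 0.59, 95% CI 0.18 to 2.70) and did not pass (unadjusted p = 0.0283, adjusted p = 0.154, edgeR). Chrd has 10 annotated transcripts and its paired columns differed by more than random division of reads would give in the SB431542 group (132 and 197 counts, 12.8 times the binomial variance) and at E13.5 (217 and 173 counts, 4.96 times). The 5′ end of Chrd lies within the span of Thpo on the opposite strand, which had only 2 to 13 counts per library.

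Grem1 (ENSMUSG00000074934; chromosome 2, 113746164 to 113758646, minus strand) varied little. Its values were 12.1 CPM in E12.5 DMSO, 10.0 with SB431542, 12.7 and 10.1 with SIS3 and 9.30 at E13.5, a range of 1.36 times, with counting intervals of E12.5 DMSO that overlapped those of the 3 inhibitor libraries. Its log2 fold changes were -0.33 (95% CI -1.62 to 0.96) for SB431542, -0.17 (-1.29 to 0.96) for SIS3 and -0.35 (-1.65 to 0.95) for stage. None passed, and each interval includes a difference of -1.

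Fst (ENSMUSG00000021765; chromosome 13, 114452290 to 114458951, minus strand) encodes follistatin, which binds activins almost irreversibly and BMPs more weakly, and whose gene is itself induced by activin and Smad signalling in several tissues. The first 300 of the 1035 coding bases of Fst-201 are shown 5′ to 3′, with the start codon in capitals, because Fst was the other member that passed a test.
Fst: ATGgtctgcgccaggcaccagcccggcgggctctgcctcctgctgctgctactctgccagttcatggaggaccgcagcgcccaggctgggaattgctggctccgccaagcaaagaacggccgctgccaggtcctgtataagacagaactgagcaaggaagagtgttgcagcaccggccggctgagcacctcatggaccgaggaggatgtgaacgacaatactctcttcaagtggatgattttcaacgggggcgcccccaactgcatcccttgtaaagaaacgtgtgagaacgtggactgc

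Fst stood at 35.7 CPM in E12.5 DMSO, 25.2 with SB431542, 13.01 and 14.7 in the SIS3 libraries (13.9 ± 1.22, SD, n = 2) and 67.5 at E13.5. The order of the libraries was the same as for Sostdc1 except between the SIS3 libraries. Counting intervals did not overlap between groups, but they leave out the spread between cultures, and every group but SIS3 is 1 library. In SIS3 against DMSO it fell by 1.44 on the log2 scale (SE 0.36, 95% CI -2.21 to -0.67, adjusted p = 0.0409, edgeR). The call was near the threshold: Fst was called in 7 of 15 alternatives with a test (adjusted p 0.000975 to 0.121, log2 fold change -1.54 to -1.31 over all 17). These alternatives have the same limit as those of Sostdc1. DESeq2 did not call it (adjusted p = 0.0838), and without the second E12.5 DMSO column or either E13.5 column the edgeR call was lost (0.0735, 0.0579 and 0.0587). The log2 fold change was -0.56 (95% CI -1.46 to 0.35, adjusted p = 1) for SB431542 and 0.95 (0.04 to 1.86, adjusted p = 0.188) for stage, and neither passed. SIS3 against SB431542 gave -0.88 (95% CI -1.66 to -0.10, unadjusted p = 0.0296, adjusted p = 0.28), which did not pass. Fst has 6 annotated transcripts, and its columns differed by 6.84 (510 and 597 counts) and 14.1 (305 and 405 counts) times the binomial variance in the E12.5 DMSO and SB431542 groups.

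Fstl1 (ENSMUSG00000022816; chromosome 16, 37776873 to 37836514, plus strand) shares a follistatin-type domain with follistatin and is reported to modulate BMP signalling rather than to trap activin. It stood at 787 CPM in E12.5 DMSO, 494 with SB431542, 487 and 585 with SIS3 and 816 at E13.5. The 3 inhibitor libraries were all below both DMSO libraries. The log2 fold change was -0.73 (SE 0.32, 95% CI -1.42 to -0.03, unadjusted p = 0.0409, adjusted p = 1) for SB431542 and -0.63 (SE 0.27, 95% CI -1.21 to -0.04, unadjusted p = 0.0369, adjusted p = 0.257) for SIS3, and neither passed edgeR's test. Their direct difference was 0.10 (95% CI -0.50 to 0.70), and the stage difference 0.08 (-0.60 to 0.77). Of its 31-base words 8.45% occur in transcripts of other genes.

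Bmper and Twsg1 encode chordin-binding modulators that can oppose or favour BMP signalling depending on context. Bmper (ENSMUSG00000031963; chromosome 9, 23223076 to 23485200, plus strand) stood at 23.8 CPM in E12.5 DMSO, 17.4 with SB431542, 27.5 and 22.9 with SIS3 and 33.9 at E13.5. The SIS3 libraries lay on both sides of the control, and the log2 fold changes were -0.51 (95% CI -1.49 to 0.48) for SB431542, 0.01 (-0.85 to 0.87) for SIS3 and 0.54 (-0.44 to 1.53) for stage, none of which passed. Its paired E12.5 DMSO columns (325 and 412 counts) differed by 10.3 times the binomial variance.

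Twsg1 (ENSMUSG00000024098; chromosome 17, 65921972 to 65951226, minus strand) encodes twisted gastrulation, which forms a complex with chordin and BMP. It was the steadiest of the 8 genes, at 161 CPM in E12.5 DMSO, 154 with SB431542, 136 and 131 with SIS3 and 137 at E13.5, a range of 1.23 times. Its log2 fold changes were -0.12 (95% CI -0.85 to 0.60), -0.34 (-0.97 to 0.28) and -0.20 (-0.93 to 0.52) for SB431542, SIS3 and stage. A log2 difference of 1 in either direction lies outside each of these intervals.

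**Figure D3:**
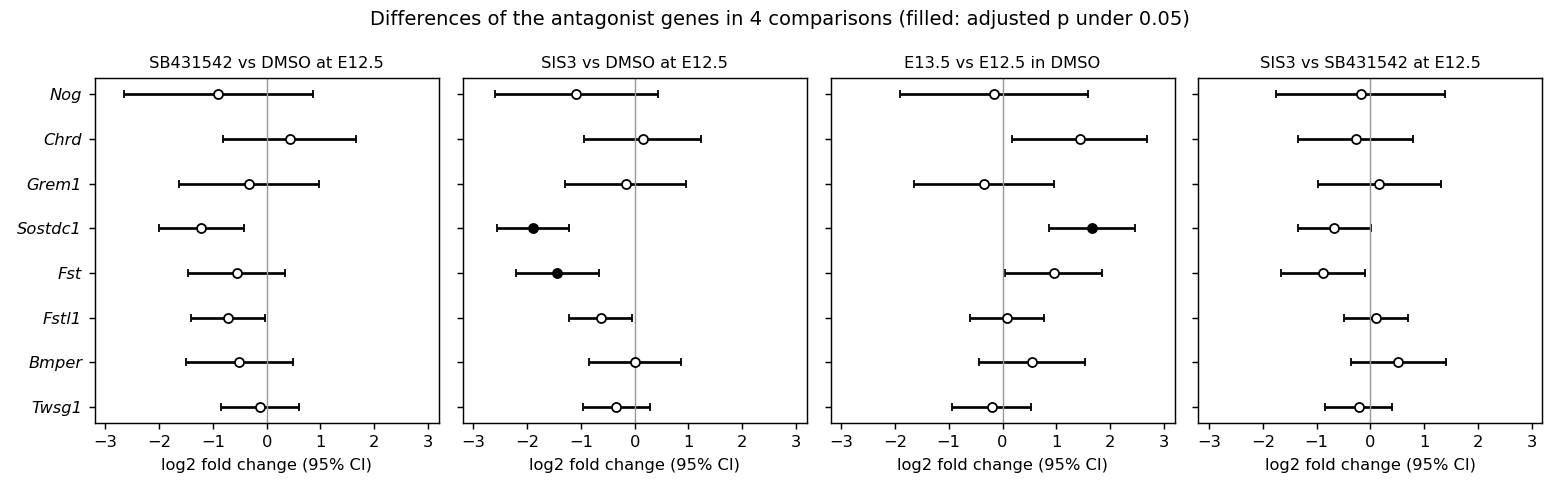
Log2 fold change of each gene with its 95% confidence interval from the edgeR fit, 1 panel per comparison; filled points passed an adjusted p of 0.05. The filled points are Sostdc1 and Fst in SIS3 against DMSO and Sostdc1 in E13.5 against E12.5.

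The calls were then counted over the set, which was chosen with earlier results of these data known. The shares over all genes are therefore given for scale and do not test the set. SIS3 against DMSO called 2 of 8 members lower and 0 higher, where 3.03% of 19022 tested genes were called lower and 0.794% higher. At an unadjusted p under 0.05 it had 3 members lower (Fstl1 besides these), where 11% of all genes were lower. E13.5 against E12.5 called 1 of 8 higher and 0 lower, where 4.06% of all genes were called higher and 1.17% lower. At an unadjusted p under 0.05 it had 3 members higher (Sostdc1, Chrd and Fst), where 15.4% of all genes were higher. SB431542 against DMSO called 0 of 8, and 0% of all genes. At an unadjusted p under 0.05 that comparison had 2 members lower (Sostdc1 and Fstl1), where 0.668% of all genes were lower, and DESeq2 called 0 members and 4 genes, all lower. SIS3 against SB431542 called 0 of 8 (1 member, Fst, lower at an unadjusted p under 0.05, against 9.63% of all genes, and 0 by DESeq2), where 2.44% of all genes were called. Median log2 fold changes of the 8 were -0.53 for SB431542, -0.49 for SIS3 and 0.31 for stage, and the medians of all tested genes were 0.00, 0.00 and -0.00. Signs were negative for 7 of 8 members with SB431542 (Chrd was the exception) and for 6 of 8 with SIS3 (not for Chrd and Bmper), and positive for 5 of 8 at E13.5. With SIS3 the sign of Chrd and of Grem1 turned in 1 of 17 alternatives each and that of Bmper in 4, and at E13.5 the sign of Nog turned in 1 of 15. These 3 comparisons share the E12.5 DMSO library, so that a high value there lowers both inhibitor comparisons and the stage comparison together. The 3 lone libraries have no replicates, and the fit assumes that they vary as the SIS3 pair does.

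The other secreted antagonists and modulators gave a comparison list of 22 genes, of which 20 were tested. With SIS3, 2 of 20 fell and 0 rose (median -0.26): Htra1, a secreted serine protease that binds TGF-beta family ligands (17.4 CPM in E12.5 DMSO, 6.46 with SB431542, 1.001 and 3.18 with SIS3, 30.5 at E13.5; log2 fold change -3.07, adjusted p = 0.0142, edgeR), and Olfm1, a secreted olfactomedin (36.2, 24.2, 12.8 and 8.80, and 31.9 CPM; -1.82, adjusted p = 0.0266). At E13.5, 1 of 20 rose (median -0.14), Fstl5 from 0.613 to 10.96 CPM (log2 fold change 4.18, adjusted p = 0.0337). With SB431542 0 of 20 were called (median 0.07). Kcp, a chordin-like protein that can favour BMP signalling, was higher in the inhibitor libraries (30.4 CPM in E12.5 DMSO, 38.0 with SB431542, 46.7 and 51.6 with SIS3) without passing (0.62 for SIS3, adjusted p = 0.419).

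Among the ligands, 1 of 14 fell with SIS3, Gdf10, a divergent BMP-family ligand also called BMP3b (61.6 CPM in E12.5 DMSO, 29.5 with SB431542, 13.7 and 9.65 with SIS3, 64.0 at E13.5; log2 fold change -2.48, adjusted p = 0.00229, edgeR). With SB431542 0 of 14 were called. At E13.5 1 of 14 fell, the muscle ligand gene Mstn, with 0 counts at E13.5 against 79 in E12.5 DMSO, at least 14.9-fold lower against a floor of 3 counts. Bmp4, the main BMP of the dental mesenchyme, stood at 80.7 CPM in E12.5 DMSO, 67.8 with SB431542, 57.7 and 43.7 with SIS3 and 89.2 at E13.5. Inhba stood at 149, 116, 180 and 70.0, and 212 CPM, and its SIS3 libraries lay on both sides of the control. Per length, Sostdc1 thus stood near Bmp4 in E12.5 DMSO (34.9 against 35.9 RPKM), below it in the SIS3 libraries (10.4 against 25.7 and 9.41 against 19.4) and above it at E13.5 (108 against 39.7).

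Of 16 receptors and co-receptors, SIS3 called 1 lower and 1 higher. Tgfbr2, the type II TGF-beta receptor gene, stood at 160 CPM in E12.5 DMSO and 78.9 and 55.2 with SIS3 (log2 fold change -1.33, adjusted p = 0.0322, edgeR), and Bmpr1b, a type I BMP receptor gene, at 4.49 and at 19.7 and 23.3 CPM (2.19, adjusted p = 0.0465). SB431542 and stage called 0 of 16. Of 15 BMP-Smad output genes, SIS3 called 1 lower, the homeobox gene Dlx3 (22.0 CPM in E12.5 DMSO, 1.17 and 4.24 with SIS3; -3.04, adjusted p = 0.025), and the other 2 comparisons called 0. Of 15 Smad2/3 output genes, SIS3 called 4 lower (Col1a1, Col3a1, Lox and Ltbp2) and stage called 1 higher (Tagln, 17.5 to 58.4 CPM, adjusted p = 0.0482). All 15 had a negative log2 fold change with SB431542 (median -0.43, 0 called), and 12 of 15 with SIS3 (median -0.55). Skil stood at 171 CPM in E12.5 DMSO, 48.3 with SB431542 and 256 and 163 with SIS3. Pmepa1 stood at 49.2 CPM in E12.5 DMSO, 13.35 with SB431542 and 42.0 and 35.3 with SIS3. Neither was called in SIS3 against DMSO. In SIS3 against SB431542, 2 of these 15 genes were called higher and 1 lower: the feedback genes Pmepa1 (log2 fold change 1.51, adjusted p = 0.0479, edgeR) and Skil (2.10, 0.0116), and the collagen gene Col1a1 (-1.66, 0.00283).

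Levels of other cell types were set beside the calls. For Sostdc1, which dental epithelium also expresses, the 15 dental epithelium markers summed to 299 CPM in E12.5 DMSO, 81.8 with SB431542, 125 and 623 in SIS3 libraries 1 and 2, and 435 at E13.5. The SIS3 libraries thus lay on both sides of the control in these markers, and Sostdc1 was below the control in both. With SB431542 the markers and Sostdc1 were both low, and at E13.5 both were high. The part of the epithelium in the Sostdc1 values was not tested in any library, the SIS3 libraries included. Over the list, 0 of 14 tested epithelium markers were called in any of the 4 comparisons, with medians of -1.55 for SB431542, 0.39 for SIS3 and 0.05 for stage. In SIS3 against SB431542 14 of 14 had a positive log2 fold change (median 2.06), where that of Sostdc1 was -0.67.

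**Figure D4:**
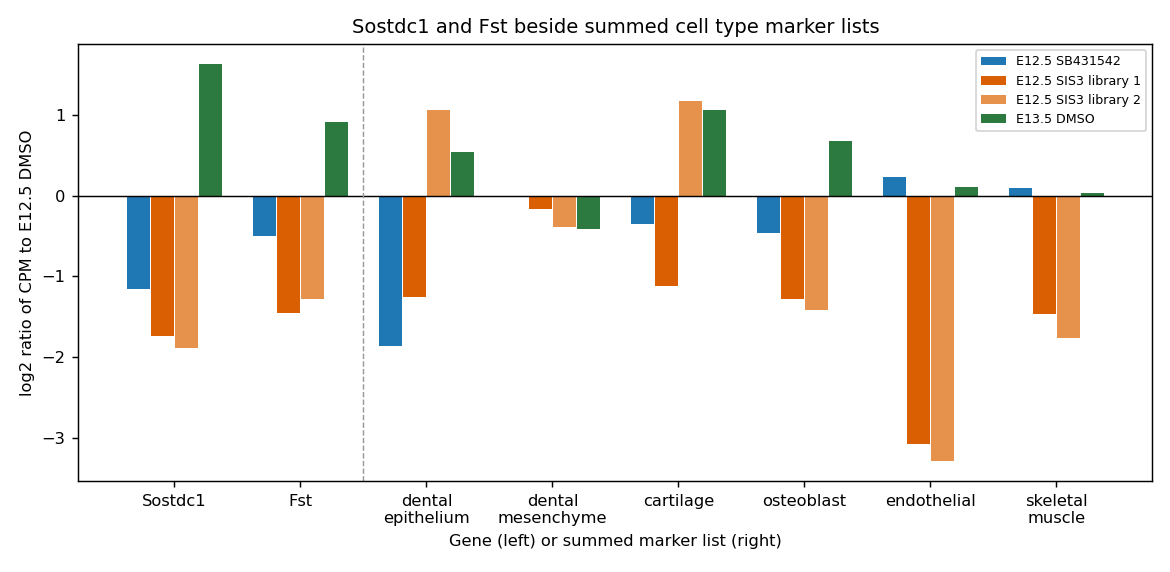
Log2 ratio to E12.5 DMSO of the CPM of Sostdc1 and Fst (left of the dashed line) and of the summed CPM of 6 marker lists (right), 1 bar per library. In SIS3 libraries 1 and 2 the epithelium markers are at -1.26 and 1.06 and the cartilage markers at -1.12 and 1.18. Sostdc1 is at -1.75 and -1.89 and Fst at -1.46 and -1.28. The part of these cell types in the 2 genes was not tested.

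Endothelial, osteoblast and muscle markers were low in the SIS3 libraries, as were Sostdc1 and Fst. The 10 endothelial markers summed to 439 CPM in E12.5 DMSO and 52.0 and 44.8 with SIS3 (10 of 10 called lower), and the 8 skeletal muscle markers to 768 and to 277 and 226 (3 of 8 lower). With SB431542 and at E13.5 the endothelial sums were 517 and 474 CPM and the muscle sums 822 and 785 CPM, all above the E12.5 control. Ttn made up most of the muscle sums, at 597 CPM in E12.5 DMSO, 657 with SB431542 and 676 at E13.5. Over the muscle list, 5 of 8 had a negative log2 fold change with SB431542 (median -0.06) and 5 of 8 at E13.5 (median -0.79). At E13.5, 2 of 8 were called lower, Myod1 (7.72 CPM in E12.5 DMSO) and Pax7 (3.58 CPM), both with 0 counts at E13.5. The 8 osteoblast markers summed to 677 CPM in E12.5 DMSO, 491.5 with SB431542, 280 and 253 with SIS3 and 1083 at E13.5, the same order of libraries as for Sostdc1. Of these sums Ibsp made up 64.7 CPM in E12.5 DMSO and 481 at E13.5, so the higher sum at E13.5 rests on Ibsp. With SIS3 4 of 8 were called lower, with Bglap at 0 in both libraries and Ibsp at 0 in library 1. With SB431542 8 of 8 had a negative log2 fold change (median -0.81, 0 called). At E13.5 1 of 8, Ibsp, was called higher and 4 of 8 were negative (median 0.13), with Bglap at 0. The 10 cartilage markers summed to 365 CPM in E12.5 DMSO, 285 with SB431542, 168 and 826 with SIS3 and 760 at E13.5, of which Col11a2 made up 451. None of the 9 tested was called, and 9 of 9 were negative with SB431542 (median -1.37), 5 of 9 with SIS3 (-0.19) and 6 of 9 at E13.5 (-1.43). The part of these cell types in the values of Sostdc1 and Fst was not tested. Bmper, which endothelium is known to express, stood at 27.5 and 22.9 CPM in the same SIS3 libraries against 23.8 in the control. Dental mesenchyme markers summed to 4286 CPM in E12.5 DMSO, 4231 with SB431542, 3833 and 3271 with SIS3 and 3208 at E13.5, with 1 of 12 called lower with SIS3 (Dlx2, -1.33, adjusted p = 0.0465, edgeR).

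The genes with the most similar pattern were found from the root mean square difference of centred log2(CPM + 1) values over the 5 libraries, among 12344 other genes with a mean of at least 5 CPM. For Fst they were the collagen IV genes Col4a2 (distance 0.10) and Col4a1 (0.12), which encode the main chains of basement membrane collagen. Col4a2 stood at 343 CPM in E12.5 DMSO, 269 with SB431542, 115 and 142 with SIS3 and 659 at E13.5. For Sostdc1, whose range few genes shared (4 genes within a distance of 0.25), they were Lamc3, a laminin chain gene (distance 0.24; 17.4, 4.94, 3.002 and 4.14, and 39.9 CPM), and 1110002E22Rik (0.24). For Chrd they were Ipmk (0.04) and Thap1 (0.05), among 296 genes within 0.25. With only 5 points, of which 2 share a treatment and a kit, these likenesses are descriptions. Grem1, Fstl1, Bmper and Twsg1 spanned 1 log2 unit or less, and Nog had a mean below 5 CPM.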

How the data were processed

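Members and gene lists were chosen with earlier results of these data known. The authors deposited estimated counts, stored as integers and unscaled; per the submitters' processing notes the build was mm10. Those notes list Salmon, HISAT2, SAMtools, deepTools and DESeq2, and the sources used here give no roles, versions or annotation. Estimation divides reads between transcripts and gene copies, so counts of genes with many transcripts carry this error too. No column was left unmapped.

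Paired columns were compared with binomial division of reads (genes with at least 50 counts) and summed as described in the report. Counts were tested with edgeR 4.0.16 (R 4.3.3): TMM normalisation, filterByExpr, 1 fit of 5 libraries with group as the only factor, robust quasi-likelihood F tests, Benjamini-Hochberg adjustment at 0.05 over 19022 genes. The fit had 1 residual degree of freedom, from the SIS3 pair, plus 12.5 borrowed across genes. No label says that the paired SIS3 samples are separate cultures, so p-values measure a spread that may be technical. The procedure was run on simulated data with planted changes, drawn with the spread of the fit itself and no kit effect. Such data cannot test whether the lone libraries vary as the SIS3 pair does. CPM used library totals, and TMM factors ran from 0.957 to 1.04. A count of 0 was set against a floor of 3 counts (0.0969 to 0.5 CPM by library). Intervals and floors cover counting error only, since no molecular identifiers are named. Lengths and coordinates came from GENCODE M21 (GRCm38), which matched 35507 of 35896 gene IDs. List genes were named if called, or if among the 3 largest changes of a list with a mean of at least 5 CPM. Alternatives included DESeq2 1.42.0, other filters, each column left out and all 8 columns as replicates. A fit on protein-coding genes without receptor and predicted genes was chosen after seeing the data. Same-numbered columns did not deviate together (correlations -0.028 to 0.004).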

Additional observations from a re-analysis of the deposited data

How the results depend on the processing

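Of 524 log2 fold changes of the 8 genes under alternatives, 20 became called and 11 lost their call, and no called value changed sign. The other 493 were counted as unchanged. Those with a test stayed on their side of the threshold. Those without a test, from leaving out a SIS3 column, moved by no more than the standard error of the main fit. Counts of called genes depended far more on the setting. In SIS3 against DMSO (2 members, 727 genes) 1 member was called with DESeq2. With a mean of at least 5 CPM, 1 member and 130 genes were called, with GC and length trends removed 1 and 121, with only the groups compared 1 and 232, and with protein-coding genes only (chosen after seeing the data) 1 and 373. Sostdc1 was the member called each time. Without a filter on low counts 1414 genes were called. In E13.5 against E12.5 (1 member, 995 genes) DESeq2 called 574 genes and no filter gave 2062. A mean of at least 5 CPM gave 0 members and 192 genes, removal of GC and length trends 0 and 66, and protein-coding genes only 0 and 56. In SB431542 against DMSO (0 members, 0 genes) DESeq2 called 4 genes and no filter gave 27. In SIS3 against SB431542 (0 members, 465 genes) the counts were 1027 without a filter, 85 with a mean of at least 5 CPM, 77 with GC and length trends removed, 166 with only the groups compared and 225 with protein-coding genes only. With all 8 columns as replicates, which treats the paired columns as independent, 2 members and 259 genes were called for SB431542, 5 and 6764 for SIS3, 4 and 9742 for stage, and 2 and 5805 for SIS3 against SB431542. Adding the replicate block to that fit gave 2 and 83, 5 and 6194, 4 and 9260, and 2 and 5191. Same-numbered columns did not deviate together, so the numbers pair nothing. Leaving out 1 column at a time gave 0 to 1 genes for SB431542, 1 to 2 members and 488 to 708 genes for SIS3, 1 member and 399 to 903 genes for stage (399 and 419 without the second or first E13.5 DMSO column, 662 without the second E12.5 DMSO column), and 0 members and 314 to 477 genes for SIS3 against SB431542. Leaving out a SIS3 column left no residual degrees of freedom, so that setting gave fold changes and no calls. Nog was not tested at a mean of at least 5 CPM. The median half-width of the 95% interval of a log2 fold change was 1.05 to 1.26, so smaller differences were mostly not detectable.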
